A study of Mus musculus with 8 samples.

Results

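Loops at the loci of 8 mouse Notch pathway genes, the receptors Notch1, Notch2 and Notch3, the ligands Jag1 and Jag2, the DNA-binding mediator Rbpj and the target genes Hes1 and Hey1, were examined in the FOXA1 and HNF4G Hi-ChIP loop lists. A loop was assigned to a gene when 1 of its anchors, the genomic intervals that a loop joins, lay within 2 kb of an annotated transcript start of that gene. Of the 249200 distinct loops in the 4 lists, 287 met this rule, from 13 of 30542 anchors, and 7 of the 8 genes had at least 1 anchor. Loops at any annotated start, 181129 in all, served as the background for the shares below. For the share with a gene start at the partner they are not a like background, as set out there.

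Hi-ChIP couples chromatin conformation capture to immunoprecipitation, so that contacts are recovered from fragments bound by a chosen protein. The 4 groups were FOXA1 in KPC tumour, FOXA1 in KPC liver mets, HNF4G in KPC tumour and HNF4G in KPC liver mets, where the KPC tumour line came from a primary pancreatic tumour of the KPC genetically engineered mouse and the liver mets line from a matched liver metastasis. All groups carried the genotype label WT and the treatment label Untreated, so none of the 4 groups had an engineered loss or gain of either factor, and the cells were cultured lines, grown without the stroma or liver tissue of the tumours. By the labels there was 1 line per context, so that a difference between these lines cannot be told apart from a difference between tumour and metastasis. There were 2 replicates per group but 1 loop list for both, so that no spread between replicates could be given. The comparisons asked which contacts of the Notch genes were listed with each factor, and whether they were listed in the tumour line, the liver mets line or both.

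Notch receptors are transmembrane proteins that are cleaved after binding a Jagged or Delta ligand on a neighbouring cell. The released intracellular domain enters the nucleus and joins RBPJ on DNA, which switches genes of the Hes and Hey families of transcriptional repressors on. In the pancreas the pathway is known for controlling progenitor maintenance and the ductal fate, and it is active in pancreatic cancer.

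The whole lists held between 76323 and 125623 loops. Markers of pancreatic duct and epithelium (Krt8, Krt18, Krt19, Epcam, Cdh1 and Sox9) all had loops in all 4 lists, between 8 and 62 per gene. Of 5 hepatocyte markers Apoa1 alone had an anchor, with 1 to 6 loops per list, and none of 4 acinar markers had one. Of 3 fibroblast markers Col1a1 had 6 to 12 loops per list, Pdgfra had 2 to 14 and Col3a1 had no anchor. A loop at a marker is not a measure of its expression, and the part of other cells in these lists was not tested.

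Hes1, a repressor that is the best known direct target of Notch signalling, and the receptor Notch1 had the most loops. The Hes1 anchor had 47 loops in FOXA1 liver mets, 43 in FOXA1 tumour, 25 in HNF4G liver mets and 35 in HNF4G tumour. Notch1 had 39, 35, 37 and 30 loops in the same order of lists, and Rbpj had 35, 29, 18 and 19. These 3 genes held most of the loops in every list. Jag1 followed with 19, 14, 11 and 8 loops, Notch2 had 11, 10, 11 and 6, Jag2 had 7, 11, 7 and 10, and Hey1 had 5, 10, 3 and 4. Notch3 had none.

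Hes1 stood first and Notch1 next in 3 of the lists, and the order was turned in HNF4G liver mets. Among the genes with loops, the 95% Poisson intervals of neighbouring genes overlapped at each step of the order in each list. The extremes did not overlap, for instance 47 (34.5 to 62.5) for Hes1 against 5 (1.62 to 11.7) for Hey1 in FOXA1 liver mets. Summed over the lists, Hes1 with 150 loops ranked above 97.7% of protein-coding genes that had a loop, Notch1 with 141 above 97.2% and Rbpj with 101 above 93.7%. Hey1, with 22, ranked above 47.3%. These counts were not divided by anchor number or width. Rbpj had 4 anchors, Notch1, Jag1 and Hey1 had 2 each, and the single Hes1 anchor was 9773 bp wide against a median of 2335 bp. Of the Notch1 anchors, 1 lay 42939 bp from the nearest coding start and had 20, 19, 17 and 12 loops. The other, over the coding start, had 19, 16, 21 and 19, in the order of lists given above.

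**Figure D1:**
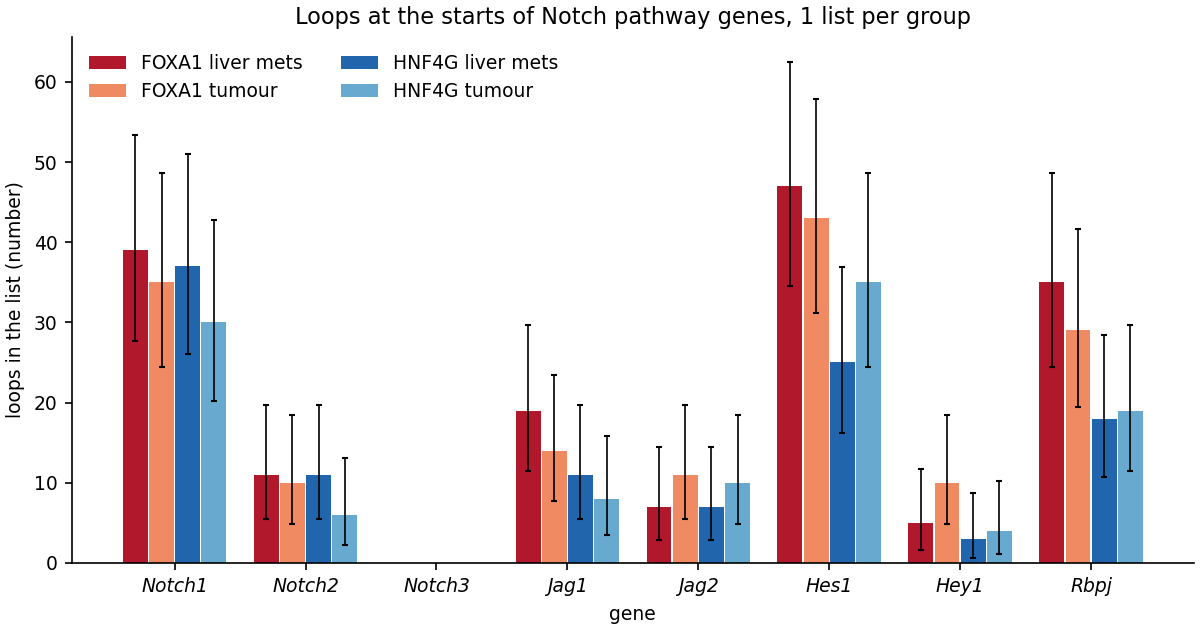
Number of loops (y axis) at each Notch pathway gene (x axis) in the 4 lists, 1 bar per list, with error bars for the 95% Poisson interval, which covers counting error only. Hes1, Notch1 and Rbpj carry between 18 and 47 loops in every list, the other genes carry fewer than 20, and Notch3 has none.

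Promoter sequences of Rbpj, Notch1 and Notch3 are shown here, read from GRCm38.p6, and no loop count depended on them. For 6 of the 8 genes a RefSeq promoter window was matched, and Hes1 and Hey1 had no entry. Letters searched on both strands were TGGGAA for RBPJ, TGTTTAC and TGTTTGC for the FOXA family, and CAAAGTCCA and CAAAGTTCA for HNF4. The Rbpj window at chr5:53590096-53590395, plus strand, held 2 RBPJ matches, printed in capitals. The second annotated Rbpj window overlapped it and shared 1 of those matches. No RBPJ match was in the windows of Notch1, Notch2, Notch3, Jag1 or Jag2, and 25.6% of all 32851 promoter windows held at least 1. No FOXA or HNF4 match was in any of the members' windows, against 8.48% and 0.861% of all windows. The windows of Notch1 (chr2:26503773-26504072, minus strand), which lies inside a loop anchor, and of Notch3 (chr17:32166841-32167140, minus strand), which does not, are printed beside it for comparison.
Rbpj: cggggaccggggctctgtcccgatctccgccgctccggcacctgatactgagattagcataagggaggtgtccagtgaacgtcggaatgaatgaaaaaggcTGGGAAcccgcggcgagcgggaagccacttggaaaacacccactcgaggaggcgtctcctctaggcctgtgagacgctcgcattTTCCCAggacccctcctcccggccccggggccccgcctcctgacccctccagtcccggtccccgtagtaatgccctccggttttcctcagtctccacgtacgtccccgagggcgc
Notch1: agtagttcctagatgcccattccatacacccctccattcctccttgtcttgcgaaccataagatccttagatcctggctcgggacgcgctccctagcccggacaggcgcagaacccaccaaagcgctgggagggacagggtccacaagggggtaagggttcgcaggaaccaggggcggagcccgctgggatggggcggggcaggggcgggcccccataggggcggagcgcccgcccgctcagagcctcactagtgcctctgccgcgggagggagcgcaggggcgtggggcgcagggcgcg
Notch3: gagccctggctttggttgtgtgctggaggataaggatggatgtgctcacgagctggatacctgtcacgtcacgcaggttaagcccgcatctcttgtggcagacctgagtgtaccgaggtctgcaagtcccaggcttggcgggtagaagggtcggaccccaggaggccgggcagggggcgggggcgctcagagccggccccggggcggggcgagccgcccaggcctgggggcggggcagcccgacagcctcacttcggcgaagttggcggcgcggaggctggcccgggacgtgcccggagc

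Among the distal partners, the stretches around FOXA letters in the highest-valued Hes1 partners are shown, from the plus strand, with the match in capitals. The partner 338 kb upstream (chr16:29727924-29730937) held 3 FOXA matches and no HNF4 match, and 67.3% of anchors within 10% of its width held a FOXA match. The partner 11.6 kb upstream (chr16:30050328-30061409) held 2, and the partner 121 kb downstream (chr16:30186607-30190177) held none.
chr16:29728006-29728072: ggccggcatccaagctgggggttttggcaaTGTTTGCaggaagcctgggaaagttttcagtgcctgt
chr16:29730194-29730260: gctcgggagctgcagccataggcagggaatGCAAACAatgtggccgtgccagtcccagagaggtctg
chr16:29730550-29730616: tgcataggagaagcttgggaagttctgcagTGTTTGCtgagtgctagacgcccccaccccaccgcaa
chr16:30053341-30053407: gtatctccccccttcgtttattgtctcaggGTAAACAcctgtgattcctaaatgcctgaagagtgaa
chr16:30060472-30060538: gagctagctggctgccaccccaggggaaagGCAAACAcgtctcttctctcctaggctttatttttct

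HNF4 letters were found in 2 of the 21 Hes1 partners that were in all 4 lists, at 156 kb upstream and 185 kb downstream. The first of the stretches below is from the upstream partner (chr16:29909131-29913668) and the others are from the downstream one (chr16:30251122-30254275).
chr16:29911096-29911164: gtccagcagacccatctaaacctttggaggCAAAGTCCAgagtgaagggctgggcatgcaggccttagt
chr16:30253557-30253625: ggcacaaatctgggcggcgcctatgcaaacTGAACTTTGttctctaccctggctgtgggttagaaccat
chr16:30253719-30253787: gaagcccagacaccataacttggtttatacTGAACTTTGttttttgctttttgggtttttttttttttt

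Wider anchors hold such letters more often, and the 21 Hes1 partners had a median width of 3571 bp. FOXA letters were in 12 of those 21 Hes1 partners (57.1%), in 64.1% of the 220 partner anchors of all members and in 62.5% of all anchors, and the share in anchors within 10% of the width of each Hes1 partner averaged 72.2%. HNF4 letters were in 9.52%, 6.82% and 8.15%, and the width-matched average was 10.8%. RBPJ letters, which are short, were in all 21 Hes1 partners but also in 89.6% of all anchors, so their presence separated nothing. The Hes1 anchor itself held 9 RBPJ matches against a median of 10 in the 92 anchors of like width, and no FOXA match, although 91.3% of those 92 anchors held at least 1. A match is a description of the letters and does not mark a bound site.

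Notch1, whose anchors lay on chromosome 2, had 80 distinct loops from 2 anchors. The anchor over its coding start (chr2:26501522-26505054) had 43 distinct loops, and the anchor near internal non-coding starts at its 3′ end (chr2:26457695-26460883), which also lies near a start of Gm13568, had 38. The anchors were joined to 59 partners in all, and 20 of these were joined to both. The anchors were also joined to each other.

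Partners of Notch1 were mostly other gene starts. In 54 of the 80 loops the partner lay within 2 kb of a start, and in 48 a protein-coding one. The share of loops with such a partner was 69.2% (95% Wilson interval 53.6 to 81.4) in FOXA1 liver mets, 65.7% (49.2 to 79.2) in FOXA1 tumour, 62.2% (46.1 to 75.9) in HNF4G liver mets and 50% (33.2 to 66.8) in HNF4G tumour. Over all loops at annotated starts, the share with a start at both anchors was between 37.6% and 42.0%. That share counts a loop between 2 starts once, whereas a count from each gene's anchor would meet it from both ends. A share counted from each anchor would be higher and was not computed, so whether Notch1 lay above it is not known.

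Each loop carried a value, read as the −log10 of an adjusted p, so that a larger value is stronger evidence within a list. In each list 1 of the 2 commonest values lay between 0.0889 and 0.171, at 12579 to 14721 loops. On this reading such loops have weak evidence, and loops were counted here at any value unless stated. The Notch1 loop with the highest mean value among those in all 4 lists joined the 3′ anchor to the start of Gpsm1, 143 kb downstream (chr2:26313659-26317992). Its values were 3.47 in FOXA1 liver mets, 1.38 in FOXA1 tumour, 1.59 in HNF4G liver mets and 1.55 in HNF4G tumour. The same Gpsm1 partner was joined to the coding-start anchor over 187 kb in FOXA1 tumour (2.87) and HNF4G liver mets (3.10) and in neither other list. GPSM1 modulates heterotrimeric G protein signalling.

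A shorter Notch1 loop, 20.7 kb from the coding start to an exon inside the gene (chr2:26480516-26484698), had values of 2.58, 0.71, 1.37 and 2.88 in the same order. The start of Egfl7, which encodes a secreted protein of endothelial cells, was joined to the 3′ anchor over 119 kb at values of 0.733, 1.15, 1.47 and 1.34. The highest value in FOXA1 tumour was 3.85, for the start of Edf1 at 897 kb. The highest in HNF4G tumour was 4.78, for an intergenic anchor 102 kb upstream of the 3′ anchor. In FOXA1 liver mets and FOXA1 tumour that last loop was at 0.0889 and 0.761. The longest Notch1 loop found in more than 1 list spanned 981 kb, in FOXA1 tumour at 1.91 and HNF4G tumour at 1.99. Such values are among the 2 commonest tied values of those lists, at 16094 and 12163 loops, and 13 to 16 of the Notch1 loops in each list sat at either of the list's 2 commonest values.

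Notch2 had 1 anchor (chr3:98012618-98016488) and 19 distinct loops, 2 of them under 20 kb and 9 of 100 kb or more. The median span was 96.8 kb over distinct loops, and 6 of the 19 partners lay inside Notch2. The loop to the partner 13.8 kb downstream (chr3:98023835-98032804), which lies in Notch2 and at a start of the predicted gene Gm42819, was in all 4 lists at 2.33, 1.91, 1.24 and 1.53. The intronic partner 6.10 kb downstream had 0.716, 1.39, 1.21 and 0.407, and the partner 73.3 kb upstream in Gm5544 had 2.38, 0.384, 0.146 and 0.171. Loops of 100 kb or more were 3 of 11 in FOXA1 liver mets, 4 of 10 in FOXA1 tumour, 3 of 11 in HNF4G liver mets and 0 of 6 in HNF4G tumour.

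The highest Notch2 values of the FOXA1 lists were in loops of more than 100 kb that occurred in 1 list. They were 2.99 in liver mets, to the start of Pde4dip 246 kb upstream, and 4.36 in tumour, to an exon of the same gene 169.6 kb upstream. In HNF4G tumour the highest was the 1.53 of the loop of 13.8 kb. PDE4DIP is a centrosome and Golgi protein. An intergenic partner 333 kb upstream was in FOXA1 tumour at 3.31 and HNF4G liver mets at 1.91.

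Notch3 had no anchor by the rule, so that its absence says only that no listed anchor lay near its starts. One anchor lay inside the gene (chr17:32142857-32144308), 5.03 kb from the nearest annotated start and 22.5 kb from the most 5′ one. That anchor had 18 distinct loops, with 5, 4, 6 and 5 in FOXA1 liver mets, FOXA1 tumour, HNF4G liver mets and HNF4G tumour, and they are not counted among the 287. Of all protein-coding genes, 49.2% had an anchor near a start.

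Jag1, a ligand of the Jagged family, was joined to partners far upstream. It had 31 distinct loops from 2 anchors, over its start (chr2:137113871-137118299) and near an internal start (chr2:137079984-137084018), and 12 of the 18 partners were joined to both. No Jag1 loop was in all 4 lists and 4 were in 3 of them. Upstream partners lay at 292 to 331 kb and at 549 to 639.9 kb among others, in a stretch with no other protein-coding start between them and Jag1, and the highest Jag1 value of each list was at 1 of these. The highest value downstream was 4.53 in FOXA1 liver mets, 224 kb from the Jag1 start at the starts of Mkks and Slx4ip, and that partner was joined to the internal anchor in HNF4G liver mets at 1.74.

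The Jag1 loop of the highest value spanned 606 kb to an intron of the predicted gene Gm14064 (chr2:137719619-137724099). It was absent from FOXA1 liver mets and had values of 9.01 in FOXA1 tumour, 3.92 in HNF4G liver mets and 1.99 in HNF4G tumour. The neighbouring anchor 600.0 kb upstream (chr2:137714889-137717368) was joined to the Jag1 start at 5.85, 1.91 and 1.99 in FOXA1 liver mets, FOXA1 tumour and HNF4G liver mets, and that loop was not listed in HNF4G tumour. From the internal Jag1 anchor the same partner was listed in HNF4G tumour at 3.90, the highest Jag1 value of that list, and in FOXA1 tumour at 1.91. The nearest protein-coding start to the first of them was that of Btbd3, 532 kb away. The partner 297 kb upstream (chr2:137411923-137414397) was listed with FOXA1 only, at 7.26 in liver mets and 3.25 in tumour, when joined to the Jag1 start. From the internal anchor the same partner was listed in FOXA1 liver mets at 1.69 and in HNF4G liver mets at 1.91.

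Jag2, the other Jagged ligand, had 20 distinct loops from 1 anchor (chr12:112928165-112930923), and as at Notch1 its partners were mostly gene starts, 15 of 20, of which 12 were protein-coding. The 1 loop in all 4 lists, 76.7 kb to an exon of the receptor gene Gpr132, had low values of 0.0889, 0.123, 0.494 and 0.171. The highest value in both FOXA1 lists belonged to the loop of 216 kb to the starts of Crip1 and Crip2, LIM domain protein genes, at 2.71 in liver mets and 1.64 in tumour, and HNF4G had no such loop. In HNF4G liver mets the highest was 3.21, to a start of Cep170b at 208 kb. The other annotated start of Cep170b with an anchor, at 187 kb, was joined to Jag2 at 1.44, 1.58 and 1.75 in FOXA1 liver mets, FOXA1 tumour and HNF4G liver mets. In HNF4G tumour no Jag2 loop passed 1.99.

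Rbpj, the factor through which the cleaved receptors act on DNA, had 59 distinct loops from 4 anchors, and 15 of these loops led to 5 partners inside the gene. The anchor over its promoter window printed above (chr5:53587904-53591627) had 26 distinct loops, the anchor at the most upstream start (chr5:53462448-53464574) had 20, and the others had 10 and 4. Counted from the anchor of each loop, upstream loops outnumbered downstream ones by 41 to 18. Most Rbpj anchors lie inside the gene, so partners inside the gene could count as upstream. The 2 anchors with most loops were joined to each other, over 126 kb, in FOXA1 liver mets (0.947), FOXA1 tumour (3.57) and HNF4G liver mets (1.51).

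The loop from the Rbpj promoter anchor to a partner 220.2 kb upstream (chr5:53367915-53371215), at a start of the predicted gene Gm42745, passed a value of 2 in all 4 lists, with 4.53, 4.77, 3.24 and 3.23. It was the highest Rbpj value in both FOXA1 lists. A neighbouring intergenic partner 235 kb upstream (chr5:53353240-53355905) was at 1.54 in FOXA1 liver mets, 1.66 in FOXA1 tumour and 1.80 in HNF4G tumour, and at 10.5 in HNF4G liver mets. The partner 146 kb upstream of the promoter anchor lay 21.2 kb from the nearest Rbpj coding start and had 1.19, 2.47, 2.82 and 1.53. The highest value in HNF4G tumour was 5.35, for a partner 243 kb upstream, which was in FOXA1 tumour at 1.68 and in neither liver mets list. Downstream, the loop from the promoter anchor to a partner at 364 kb was listed at 3.41 in FOXA1 tumour and 3.53 in HNF4G tumour. The same partner was joined to the most upstream Rbpj anchor in FOXA1 liver mets at 1.82.

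Outside Hes1, loops at a value of 2 or more were a minority in each list, at shares somewhat above the background. Loops at 2 or more were 12.1% (7.33 to 19.2) of the loops of the other members in FOXA1 liver mets, 13.8% (8.52 to 21.5) in FOXA1 tumour, 12.6% (7.21 to 21.2) in HNF4G liver mets and 15.6% (9.15 to 25.3) in HNF4G tumour. The background over all loops at annotated starts was 9.57%, 8.28%, 7.80% and 8.02%, which lay inside the interval in FOXA1 liver mets and HNF4G liver mets and just outside it in the tumour lists. With Hes1 the shares were 23.3%, 23.7%, 21.4% and 23.2%.

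Hes1 had 58 distinct loops from its 1 anchor (chr16:30062581-30072353), which covers the gene. Loops at a value of 2 or more were 24 of 47 in FOXA1 liver mets (51.1%, 37.2 to 64.7), 21 of 43 in FOXA1 tumour (48.8%, 34.6 to 63.2), 13 of 25 in HNF4G liver mets (52.0%, 33.5 to 70.0) and 14 of 35 in HNF4G tumour (40%, 25.6 to 56.4). At the highest value that the lists hold, 20, Hes1 had 8 of the 328 such loops of FOXA1 liver mets, 3 of 114 in FOXA1 tumour, 0 of 76 in HNF4G liver mets and 5 of 111 in HNF4G tumour. No other member had a loop at 20.

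Loops of Hes1 to 3 partners were at 20 in 3 lists. The partners were those 338 kb upstream, 11.6 kb upstream and 121 kb downstream whose coordinates are given above. In HNF4G liver mets their values were 11.2, 7.57 and 6.09. All 3 partners were intergenic, and the nearest protein-coding start to the first was that of Opa1, a GTPase of mitochondrial fusion, at 111 kb. The partner 11.6 kb upstream, counted between midpoints, was 11082 bp wide and ended 2.975 kb from the Hes1 start. That loop thus joined 2 wide neighbouring anchors. The partner 122 kb upstream, at a start of the predicted gene Gm26569, had 20 in FOXA1 liver mets, 13 in FOXA1 tumour, 10.6 in HNF4G liver mets and 5.59 in HNF4G tumour.

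Some Hes1 partners had unequal values between lists. The partner 267 kb upstream had 20, 7.53, 3.39 and 1.81 in FOXA1 liver mets, FOXA1 tumour, HNF4G liver mets and HNF4G tumour. The partner 169.7 kb downstream had 20, 2.73, 4.93 and 20. The partner 252 kb upstream had 20, 7.46, 1.84 and 20. Of the 21 loops in all 4 lists, the FOXA1 value was higher in liver mets in 9, lower in 9 and equal, at 20, in 3, and the HNF4G value was higher in liver mets in 11 and lower in 10. The values of the lists are not on 1 scale, since tied values differ between lists, so these are descriptions.

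**Figure D2:**
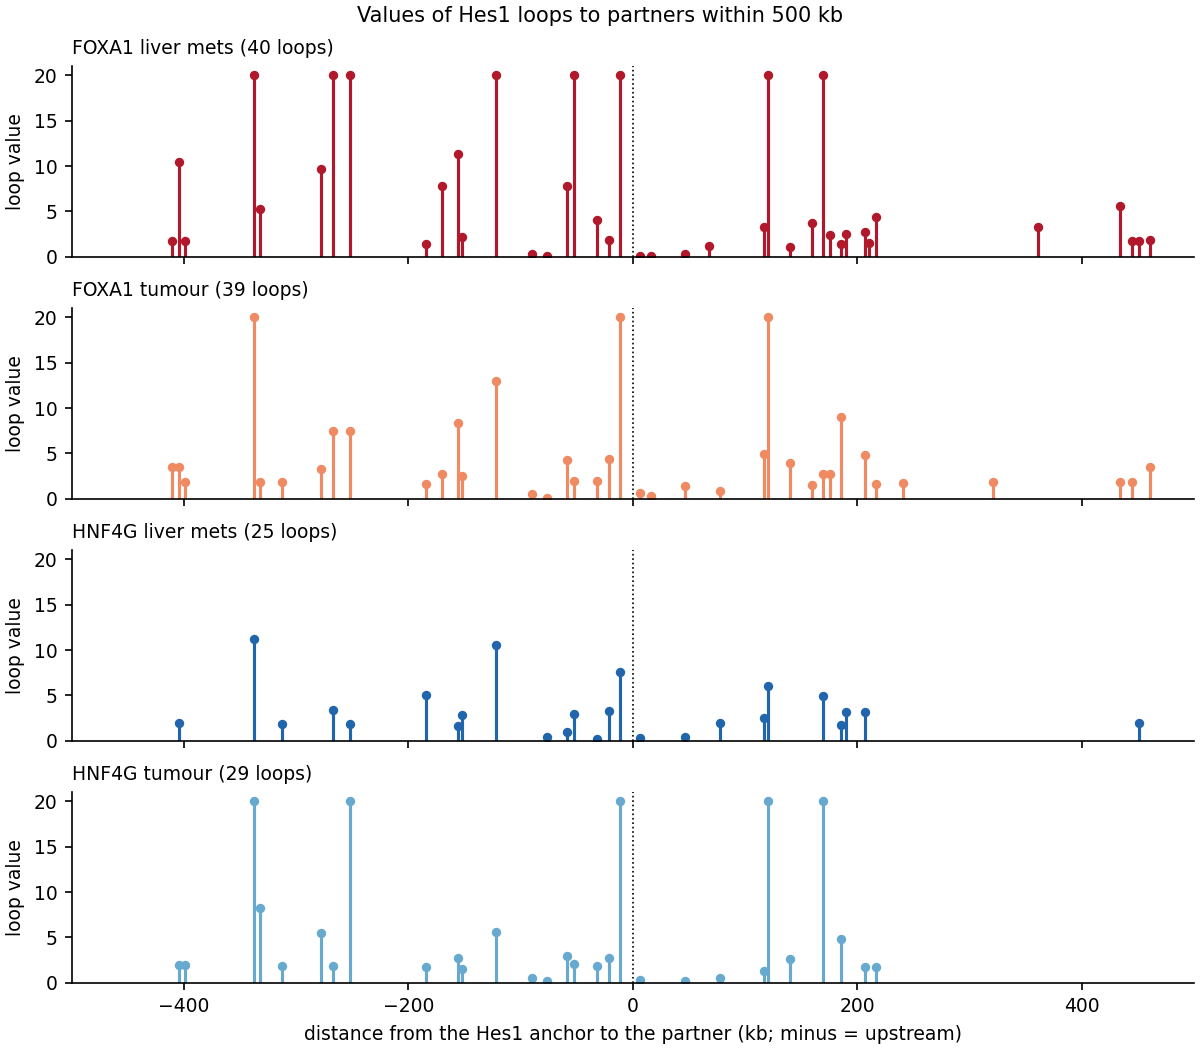
Value of each Hes1 loop (y axis, read as −log10 of an adjusted p, with a ceiling of 20) against the distance of its partner from the Hes1 anchor (x axis, kb, minus for upstream), 1 panel per list, for partners within 500 kb. The stems at 338 kb and 11.6 kb upstream and 121 kb downstream are at 20 in 3 lists and between 6.09 and 11.2 in HNF4G liver mets, where the stem 122 kb upstream stands at 10.6.

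Around Hes1, 44 of the 49 anchors within 500 kb (89.8%) were partners of its anchor in at least 1 list. Notch1 reached 36 of 41, Jag1 13 of 15, Rbpj 25 of 31, Hey1 10 of 16, Notch2 18 of 30 and Jag2 18 of 45. Jag2 had the lowest share. These shares pool the partners of all anchors of a gene, from 1 anchor for Notch2 and Jag2 to 4 for Rbpj. The same share over all genes was not computed, so the order of the genes is a description.

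The other target gene, Hey1, had a sparse pattern that differed from Hes1. Its 20 distinct loops came from 2 anchors (chr3:8663665-8665978 and chr3:8666972-8669844), 19 ran upstream, none was shorter than 72.9 kb and 18 spanned 100 kb or more. In all, 19 of the 20 occurred in 1 list only. The exception joined the first anchor to an intergenic partner 100.4 kb upstream (chr3:8762878-8767623), at 1.71 in FOXA1 tumour, 1.26 in HNF4G liver mets and 1.06 in HNF4G tumour. The highest values were 4.48 in FOXA1 liver mets, to an intron of Mrps28 201 kb upstream, and 3.23 in FOXA1 tumour, to an intron of Tpd52 311 kb upstream. With HNF4G no Hey1 loop passed 1.99.

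**Figure D3:**
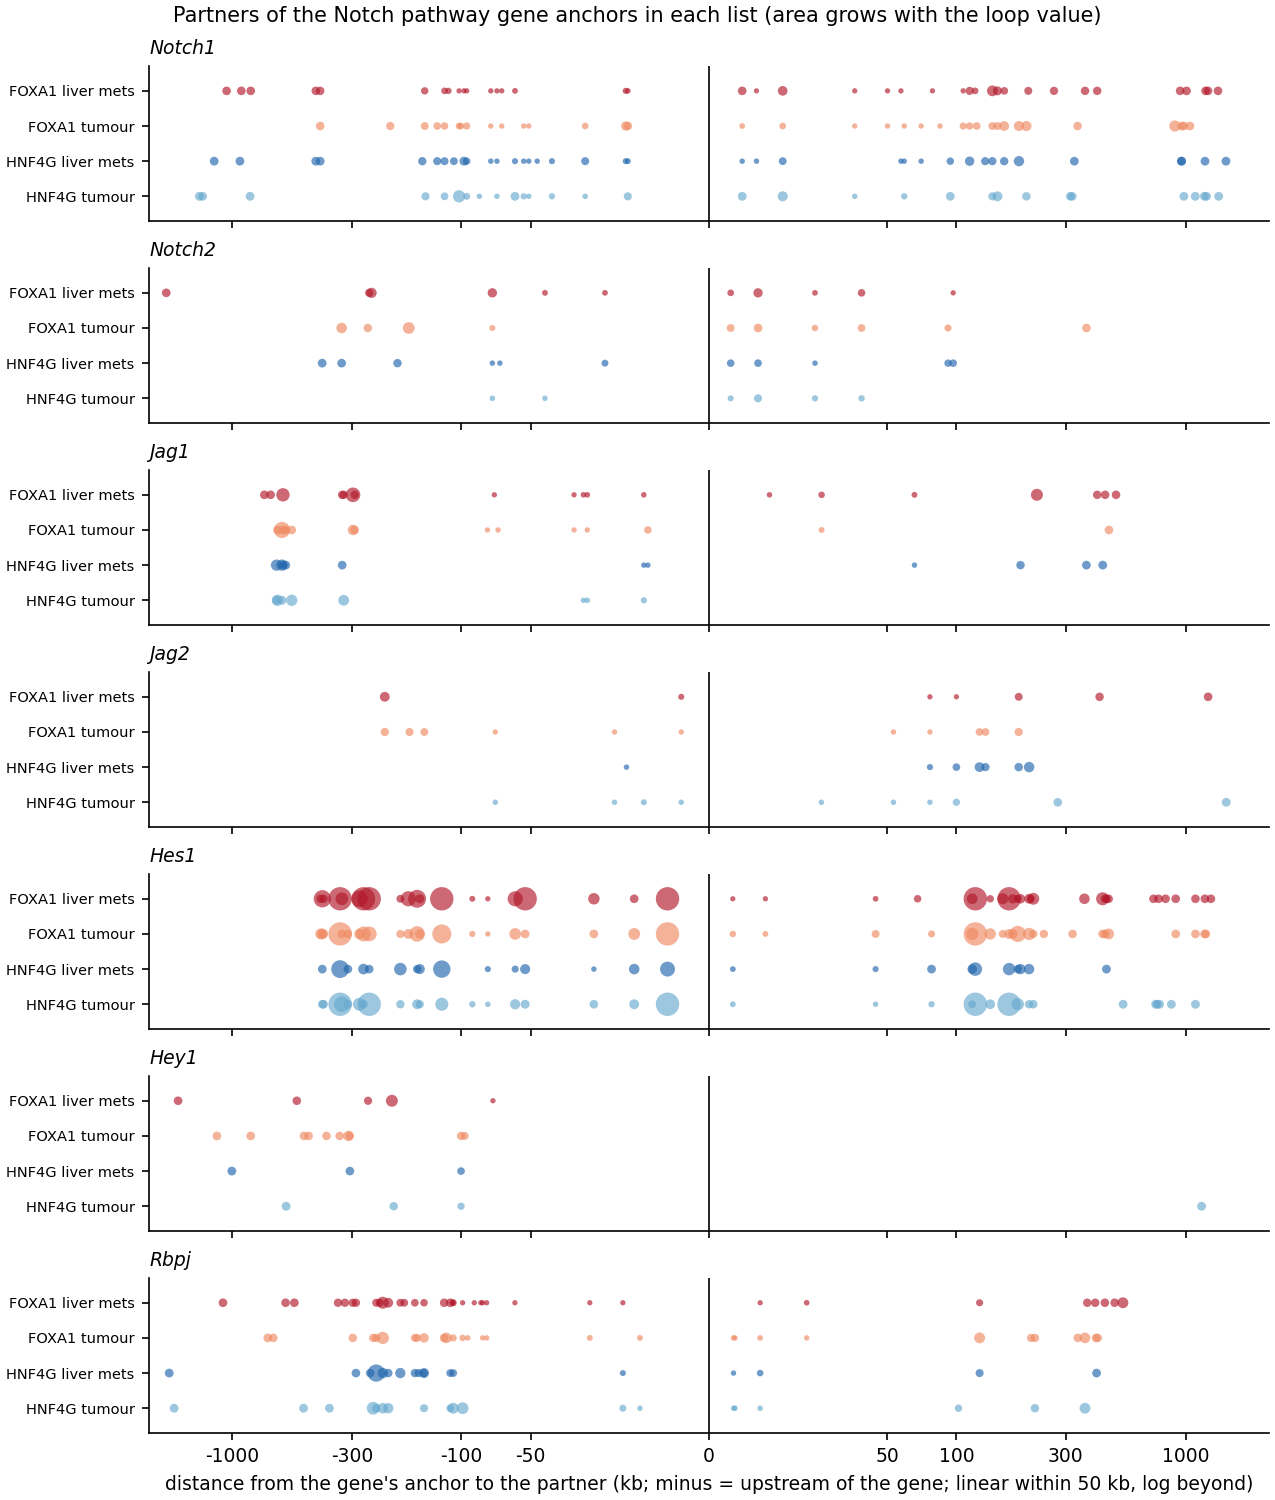
Position of each partner relative to the anchor of its gene (x axis, kb, linear within 50 kb and logarithmic beyond, minus for upstream), 1 panel per gene and 1 row of points per list, with point area growing with the loop value. Jag1 has partners at 292 to 331 kb and 549 to 639.9 kb upstream and 1 at 224 kb downstream that reaches 4.53, Hey1 has 1 downstream partner in HNF4G tumour, and the largest points belong to Hes1.

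Membership across the lists also set Hes1 apart in number. Of the 287 member loops, 51.2% (45.5 to 56.9) were in 1 list, 22.6% in 2, 13.2% in 3 and 12.9% (9.50 to 17.3) in all 4. Over all loops at annotated starts the shares were 65.7%, 19.7%, 9.13% and 5.54%. Hes1 had 21 of 58 in all 4 lists (36.2%, 25.1 to 49.1), and without Hes1 the share over the other members was 6.99% (4.35 to 11), an interval that included the background. The share of the other members in 1 list was 56.8% (50.3 to 63.0), an interval below the background of 65.7%. Notch1 had 6 of 80 in all 4, Notch2 4 of 19, Rbpj 5 of 59, Jag2 1 of 20, and Jag1 and Hey1 none.

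Over all loops at annotated starts, the share in all 4 lists was 33.3% under 20 kb and lower in each longer range of spans, so spans were matched, a comparison chosen after seeing the data. Between 100 and 500 kb, 13 of 32 Hes1 loops (40.6%, 25.5 to 57.7) were in all 4 lists, against 2.14% of 77335 loops at annotated starts and 5.50% (2.55 to 11.5) of 109 loops of the other members. Between 20 and 100 kb the shares were 6 of 9 for Hes1, 10.5% for the other members and 11.6% for all starts. From 500 kb on no member loop was in all 4 lists, and 0.187% of all loops at starts were. Loops in 1 list were 10 of 11 for Hey1 between 100 and 500 kb, against 69.2% of all loops at starts. From 500 kb on they were 7 of 7 against 91.0%. Among the 1037 protein-coding genes with 50 or more distinct loops, the Hes1 share was above that of 99.7%, the Rbpj share above 59.8% and the Notch1 share above 51.5%. Anchor width moved with these counts. The 92 anchors within 10% of the Hes1 anchor's width had a median of 7.5 loops in all 4 lists, and Hes1 with 21 was above 97.8% of them, while its 58 distinct loops were above 66.3% of them. The part of anchor width in the Hes1 counts was not tested further.

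The 21 Hes1 loops in all 4 lists reached from 404 kb upstream to 207 kb downstream, 14 upstream and 7 downstream. Their partners were intergenic in 12 cases, in exons in 3, in introns in 2 and at annotated starts in 4, and none of these starts was protein-coding. The 4 were starts of Gm26834, Gm26569, 4632428C04Rik and Gm49645.

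Membership depended on how exactly an anchor had to match. With each anchor widened by 5 kb on either side, 38.0% (32.6 to 43.7) of member loops had a counterpart in all 4 lists and 22.0% (17.6 to 27.1) in 1 list, against 24.9% and 37.2% of all loops at annotated starts. Without Hes1 these shares were 30.6% (24.96 to 36.8) in all 4 lists and 24.9% (19.7 to 30.9) in 1 list. The share in all 4 was then 67.2% for Hes1, 63.2% for Notch2, 46.3% for Notch1, 30% for Jag2, 22.0% for Rbpj and 6.45% for Jag1, and Hey1 still had none. Hey1 loops were in 1 list in 13 of 20 cases even then.

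**Figure D4:**
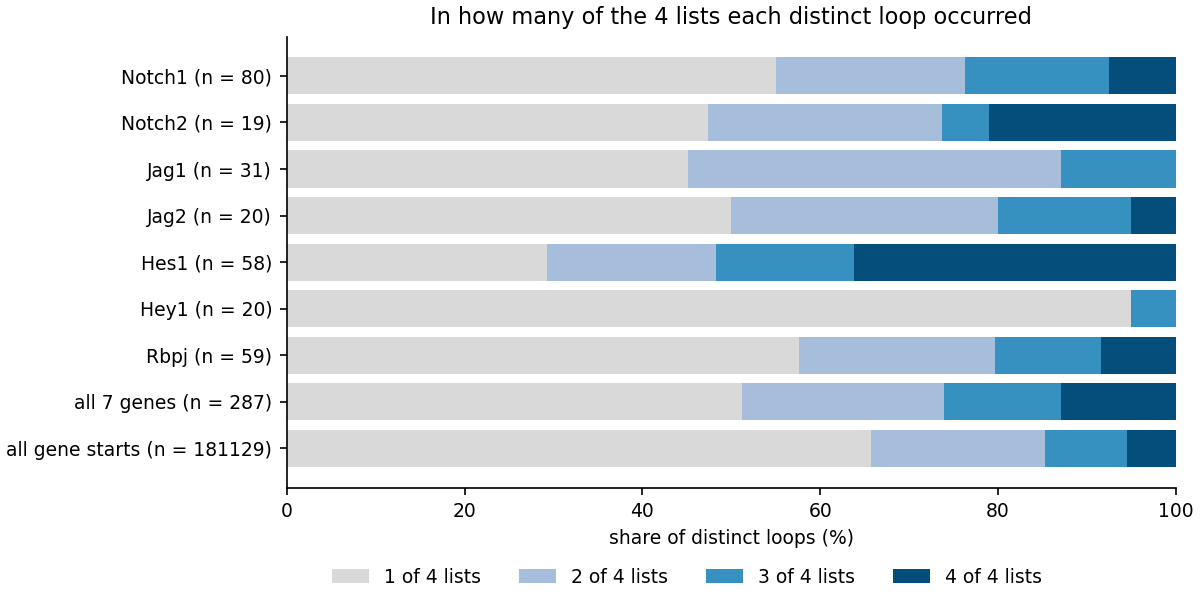
Share of distinct loops (x axis, %) found in 1, 2, 3 or all 4 lists for each gene, for the 7 genes with an anchor together and for all loops at annotated starts, with the number of distinct loops beside each name. Hes1 has 36.2% of its loops in all 4 lists and Hey1 has 95% in 1 list, against 5.54% and 65.7% for all gene starts. Spans are not matched here, and longer loops were more often in 1 list.

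Between the lines, the members as a whole had similar numbers of loops. With FOXA1 they had 163 loops in liver mets and 152 in tumour, a ratio of 1.07 (95% exact interval 0.854 to 1.35), and the whole lists had a ratio of 1.21. With HNF4G there were 112 in each, a ratio of 1.00 (0.763 to 1.31) against 1.02 for the whole lists. These intervals cover counting error alone and take each loop as independent of the others that share its anchor. Since a group had 1 list, the groups could not be tested against each other.

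Gene by gene, past 1.5-fold with at least 10 loops in the 2 lists together, no member had more FOXA1 loops in liver mets and 2 had more in tumour, Jag2 with 11 against 7 and Hey1 with 10 against 5. Over all genes counted in this way 26% lay past 1.5-fold towards liver mets and 8.1% towards tumour. The ratios of liver mets to tumour were 0.636 (0.209 to 1.80) for Jag2 and 0.50 (0.134 to 1.61) for Hey1, and both intervals included 1 and the 1.21 of the lists. Notch1 at 1.11, Notch2 at 1.1, Jag1 at 1.36, Hes1 at 1.09 and Rbpj at 1.21 lay within 1.5-fold.

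With HNF4G, Notch2 alone passed 1.5-fold towards liver mets, with 11 loops against 6 (1.83, 0.621 to 6.04), and no member passed it towards tumour. Of all genes 16% and 18.8% did so in these directions. The ratio was 1.38 for Jag1, 1.23 for Notch1, 0.947 for Rbpj, 0.714 for Hes1 and 0.70 for Jag2, all with intervals that included 1. Hey1, with 3 and 4 loops, had too few to be read. No member passed 1.5-fold in the same direction with both factors.

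Between the factors, the members had more FOXA1 than HNF4G loops in both lines, to the extent that the whole lists did. In tumour the ratio was 1.36 (1.06 to 1.75) for the members and 1.36 for the lists, and in liver mets it was 1.46 (1.14 to 1.87) and 1.61. In tumour Notch2 (1.67), Jag1 (1.75), Hey1 (2.50) and Rbpj (1.53) passed 1.5-fold towards FOXA1 and none towards HNF4G, where 36.1% and 7.73% of all genes did. All 4 intervals included 1. In liver mets Jag1 (1.73), Hes1 and Rbpj passed it towards FOXA1 and none towards HNF4G, against 53.5% and 3.36% of all genes, so that 3 of 6 genes counted was near the background.

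Hes1 and Rbpj in liver mets had the only single-gene ratios whose intervals left out 1. Hes1 had 47 FOXA1 and 25 HNF4G loops, a ratio of 1.88 (1.13 to 3.19), and Rbpj had 35 and 18, a ratio of 1.94 (1.07 to 3.65). Divided by list size, Hes1 was at 1.17 (0.705 to 1.98) and Rbpj at 1.21 (0.666 to 2.27), and both intervals included 1. Counting only anchors that hold an Rbpj start, the Rbpj ratio was 1.08 (0.469 to 2.49), and among loops at a value of 2 or more the Hes1 ratio was 1.85 (0.903 to 3.95).

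Counted as distinct loops, those listed with FOXA1 but never with HNF4G outnumbered the reverse at Rbpj (31 against 9), Hes1 (21 against 5), Jag1 (15 against 4), Hey1 (14 against 5) and Notch2 (6 against 3). The numbers were closer at Notch1 (27 against 23) and Jag2 (5 against 6). Loops listed in liver mets but never in tumour outnumbered the reverse at Notch1 (30 against 20), Rbpj (23 against 18), Jag1 (13 against 5) and Notch2 (8 against 3), were level at Hes1 (10 against 9) and were fewer at Hey1 (7 against 12) and Jag2 (4 against 9). Over all loops at annotated starts, 47.1% were listed with FOXA1 alone and 26.1% with HNF4G alone, against 41.5% and 19.2% of the member loops. In liver mets alone were 38.7% and in tumour alone 33.0% of all loops at starts, against 33.1% and 26.5% of the member loops. For liver mets alone against tumour alone, the gene shares ran from 17.2% (Hes1) to 42.1% (Notch2) and from 15.5% (Hes1) to 60% (Hey1).

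**Figure D5:**
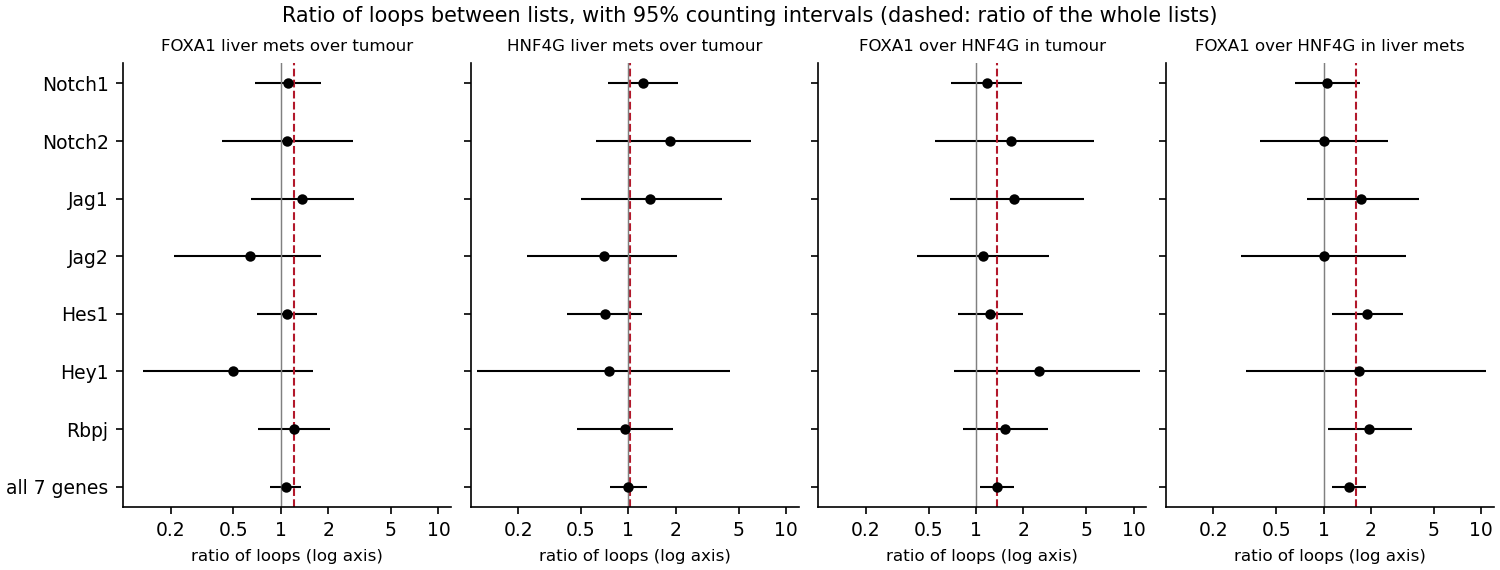
Ratio of loops between lists (x axis, logarithmic) for each gene and for the 7 genes together (y axis), 1 panel per comparison, with points for the ratio, bars for the 95% exact interval, a grey line at 1 and a dashed line at the ratio of the whole lists. The intervals of Hes1 and Rbpj leave out 1 in the last panel, where the dashed line stands at 1.61 and lies inside both.

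Spans of member loops were like those of other loops at starts. With FOXA1 their medians were 170.5 kb in liver mets and 148 kb in tumour, where all loops at annotated starts had 174 and 149.6 kb. With HNF4G they were 127 and 131 kb, where all loops at starts had 123 and 142 kb. From 100 kb on lay 66.3% of the member loops of FOXA1 liver mets, 64.5% of FOXA1 tumour, 60.7% of HNF4G liver mets and 58.9% of HNF4G tumour. The share of all member loops with a gene start at the partner was 31.3%, 38.2%, 40.2% and 34.8% in the same order. Without Notch1 the share was 19.4%, 29.9%, 29.3% and 29.3%, lower than over all loops at starts. In HNF4G liver mets alone the interval (20.2 to 40.4) included the share over all loops at starts. As set out for Notch1, that background is not a like one. A share counted from each gene's anchor would be higher and was not computed. The shares without Notch1 would lie below it as well. Whether the HNF4G liver mets interval would include it is not known. With coding starts alone the share of all members was 16.1%, 17.6%, 20.2% and 12.2% in the 4 lists, and no background is given for it. In each list Jag1 (median between 292 and 438 kb) and Hey1 (255 to 389 kb) had the longest median spans of the members, and Notch2 had the shortest (36.3 to 82.6 kb).

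Of 65 other genes of the pathway, 54 had an anchor near a start. None was joined to a member by a loop, and no loop joined the starts of 2 different members. The most loops summed over the lists were at Tle3, a Groucho-type corepressor, with 52, 39, 38 and 28 in FOXA1 liver mets, FOXA1 tumour, HNF4G liver mets and HNF4G tumour. Hes7 had 36, 35, 30 and 30, and the next were Hdac1, a histone deacetylase, Maml3, a coactivator of the Notch complex, and Rfng, a glycosyltransferase that modifies the receptors, with 94 loops each over the lists. No gene of the list passed 1.5-fold in the same direction between the lines with both factors. With FOXA1, 11 of 41 counted genes passed it towards liver mets and 2 towards tumour, and with HNF4G 1 and 8 of 34 did, against the 26%, 8.1%, 16% and 18.8% of all genes given above. Between the factors, 5 of 37 genes passed it towards FOXA1 in tumour and 17 of 41 in liver mets, and 4 and 1 towards HNF4G, where 36.1% and 53.5% of all genes passed it towards FOXA1 and 7.73% and 3.36% towards HNF4G.

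By the sum of absolute differences over the 4 lists, the pathway gene whose numbers were most like those of Notch1 was Hes7, at 10, and for Hes1 it was Hes7 or Tle3, at 29, the least close of the matches. Jag1 was nearest to Kat2a (3), Notch2 to Numbl (5), Hey1 to Fbxw7 (5), Jag2 to Dtx4 and Ep300 (7 each) and Rbpj to Spen (9). This measure rests on 4 numbers per gene.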

How the data were processed

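FOXA1 and HNF4G Hi-ChIP was measured in 8 samples, 2 replicates in each of 4 groups taken from the sample titles. The authors deposited 1 loop list per group, made with HiC-Pro (version 3.1.0 per the labels) on mm10 with DpnII fragments and with hichipper. How the replicates were joined, the anchor source and the minimum of paired reads are not given in the sources used here. Each list holds 2 anchors per loop, an unnamed value and a display score. The value deposited by the authors was read as the −log10 of an adjusted p, from the values alone (long runs of ties, a maximum of 20). The deposited display score followed from the value in 100% of loops (its whole part, plus 1, times 10) and was not used. Paired reads and depth are unknown, so no precision from depth is given, and the interval of a count or share covers counting error only. No column was left unmatched (0).

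Coordinates are GRCm38 (mm10), counted from 1. Starts came from GENCODE M21 and sequences from GRCm38.p6 and RefSeq. A loop belonged to a gene when an anchor lay within 2 kb of any annotated start. Loops with identical anchors were 1 distinct loop, and span was the distance between anchor midpoints. Upstream follows the strand of the gene and is counted from the gene's own anchor in the loop, so partners inside a gene can be upstream. Intervals of ratios are Clopper-Pearson (exact, conditional on both counts together), shares have Wilson intervals and counts have Poisson intervals, all at 95%. Groups were not tested against each other, since each has 1 list. A gene was counted past 1.5-fold where the lists held 10 or more loops together. Named loops were, for each member, up to 3 in all 4 lists by mean value, the highest value in each list (ties to the shorter span) and the longest in 2 or more lists, and for pathway genes the 5 with most loops, any joined to a member and any past 1.5-fold the same way with both factors. Other loops named, among them further Notch2, Jag1, Jag2, Rbpj and Hes1 partners, were chosen after their values were seen. The members, pathway list, markers and motifs were chosen with earlier results of these data known. Alternatives were the start window, coding starts alone, a value of 2 or more, division by list size and widened anchors. Others left out loops under 20 kb, anchors shared with other coding genes, or each gene in turn. Matching by span, widened anchors for all loops at starts value shares without Hes1, width-matched motif shares and the shares of loops listed with 1 factor or line alone were added after seeing the data. Scripts ran in Python 3.11.15 with pandas 2.3.3, numpy 2.4.6, SciPy 1.17.1, matplotlib 3.10.9 and samtools 1.23.1, and were tested on simulated data.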

Additional observations from a re-analysis of the deposited data

How the results depend on the processing

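Of 188 alternatives computed for results over all members, 163 stayed within the interval of the value given, 23 left it and 2 turned direction. All 160 for single genes stayed inside, but the Rbpj ratio of FOXA1 to HNF4G in liver mets fell to 1.08 with the start inside the anchor, where its interval included 1. Both counts include the setting that left out anchors shared with other coding genes. That setting removed no member anchor, so its results could only repeat the values given. Divided by list size, the FOXA1 over HNF4G ratio was 0.995 in tumour and 0.905 in liver mets, both now below 1, with intervals that included 1. The tumour interval also included 1 with the start inside the anchor (1.17) and with coding starts alone (1.28), and both did among loops at a value of 2 or more (1.38 and 1.58). The share of member loops with a gene start at the partner followed the definition of a start. In FOXA1 liver mets, FOXA1 tumour, HNF4G liver mets and HNF4G tumour it was 20%, 26.9%, 26.8% and 22.8% with the start inside the anchor and 16.1%, 17.6%, 20.2% and 12.2% with coding starts alone. With a start within 5 kb it was 42.5% in FOXA1 liver mets, 47.1% in FOXA1 tumour and 46.9% in HNF4G tumour. Among loops at a value of 2 or more it was 30.6% in FOXA1 tumour, the share in all 4 lists was 8.45%, and the share of 100 kb or more was 81.6%, 88.9%, 83.3% and 76.9%. With anchors widened by 5 kb, 38.0% of member loops were in all 4 lists and 22.0% in 1. Leaving out 1 gene at a time, the share in all 4 lists was between 6.99% (without Hes1) and 14.98%, and the share with a gene start at the partner was 19.4% (without Notch1) to 37.5% in FOXA1 liver mets, 29.9% (without Notch1) to 42.3% in FOXA1 tumour and 29.3% (without Notch1) to 44.8% in HNF4G liver mets. The cause of these shifts was not tested beyond the definitions themselves. No paired analysis was possible because each group has 1 list for both replicates, and leaving out a replicate was not run for the same reason. Depth is unknown, the reading of the value as −log10 of an adjusted p rests on the values alone, and no list shows the variation between cultures.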
